A study of Picromerus lewisi with 6 samples.

Results

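Histidine decarboxylase converts the amino acid histidine into histamine in a single step, with pyridoxal phosphate as its cofactor. In insects histamine is best known as the transmitter that photoreceptors release, and it is also a component of the venoms of bees and wasps. Other decarboxylases make dopamine, serotonin, tyramine and the precursors of polyamines, and the vesicular amine transporter loads amines into secretory vesicles. This account follows 1 transcript cluster for histidine decarboxylase, Cluster-9520.2665, of 22242 clusters in the series. It was chosen by its FPKM in these same libraries, high in adults and listed at 0 in nymphs, so its own stage difference is described without a test. It is set beside the 22 other clusters whose Swiss-Prot description names a decarboxylase, histamine, tyramine or tyrosine 3-monooxygenase, and beside 47 clusters of the wider amine pathway found by text patterns.

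The samples are venom glands of Picromerus lewisi, a predatory stink bug of the family Pentatomidae that injects salivary venom into insect prey. Adult glands (n = 3 libraries) were compared with glands of nymphs of the 5th instar, the last stage before the adult moult (n = 3 libraries), with no treatment or allele named for either stage. The labels give neither the number of animals in a library nor their sex or feeding state. Each p-value is therefore set against the spread among 6 libraries whose origin in separate animals is not stated, and part of that spread may be technical.

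Levels are the authors' deposited FPKM, a fragment count per unit of cluster length and of library size. Rescaled FPKM are these values divided by 1 factor per library, the median ratio over 4653 clusters above 0 in every library. The libraries held 13926512 to 19082933 fragments, recovered from the steps of the low FPKM values. The share of FPKM in the bug's own mitochondrial clusters was 18.6% in adult replicate 2 and from 52.7% to 84.5% in the other libraries. Clusters at 1 FPKM or more numbered 18155 in adult replicate 2, 4927 and 8679 in adult replicates 1 and 3, and 10862 to 14040 in the nymph libraries. In each library 7 to 25 of 104 clusters for cytosolic ribosomal proteins, which every cell uses, were at 0, so a 0 is given here only as listed at 0. Serine proteases and named venom proteins, taken as markers of venom gland secretion, summed to 66448 to 501712 FPKM in adults and 67502 to 177391 in nymphs, so the labelled tissue carried its markers at both stages.

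Cluster-9520.2665 is 2305 bases long, and all its best matches in the deposited table are histidine decarboxylases. The closest protein and mRNA are the histidine decarboxylase-like entries of the stink bug Halyomorpha halys (protein score 2533), and the closest Swiss-Prot entry is the Drosophila melanogaster enzyme Hdc (score 1947). The cluster carries the conserved domain of pyridoxal-dependent decarboxylases, which 7 clusters of the table carry, itself included. A domain of a phosphatase regulator was also listed for it, which the protein matches do not share in name.

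Histidine decarboxylase was at 77.4 FPKM in adult replicate 1, 1004 in adult replicate 2 and 172 in adult replicate 3, and was listed at 0 in all 3 nymph libraries. Adult replicate 2 was 13.0 times adult replicate 1, and the stages did not overlap. After rescaling the adult values were 273, 611 and 110.5, a mean of 332 ± 256 (SD, n = 3). Rescaling changed the order of the adult libraries: replicate 3 stood above replicate 1 as deposited and below it when rescaled, and the spread between the highest and the lowest narrowed to 5.53 times. On the log2(rescaled FPKM + 1) scale the adult mean was 8.05 ± 1.23 (SD, n = 3) and the nymph mean 0.00. The difference of 8.05 depends on the added 1, and no fold change is given against a stage listed at 0. In bulk tissue, fewer cells that make a transcript and less of it per cell cannot be told apart.

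The adult values rest on many fragments. About 2175, 29777 and 6490 fragments were recovered for the cluster in adult replicates 1, 2 and 3. A single fragment would have stood at 0.033, 0.026 and 0.028 FPKM in nymph replicates 1, 2 and 3, above the last decimal of the table, and none was listed. These counts cover sampling of fragments only, since the libraries hold no molecular identifiers. Among all clusters, histidine decarboxylase ranked 159, 104 and 253 by FPKM in adult replicates 1, 2 and 3, at percentiles 97.8, 99.5 and 97.2 of the clusters above 0.

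**Figure D1:**
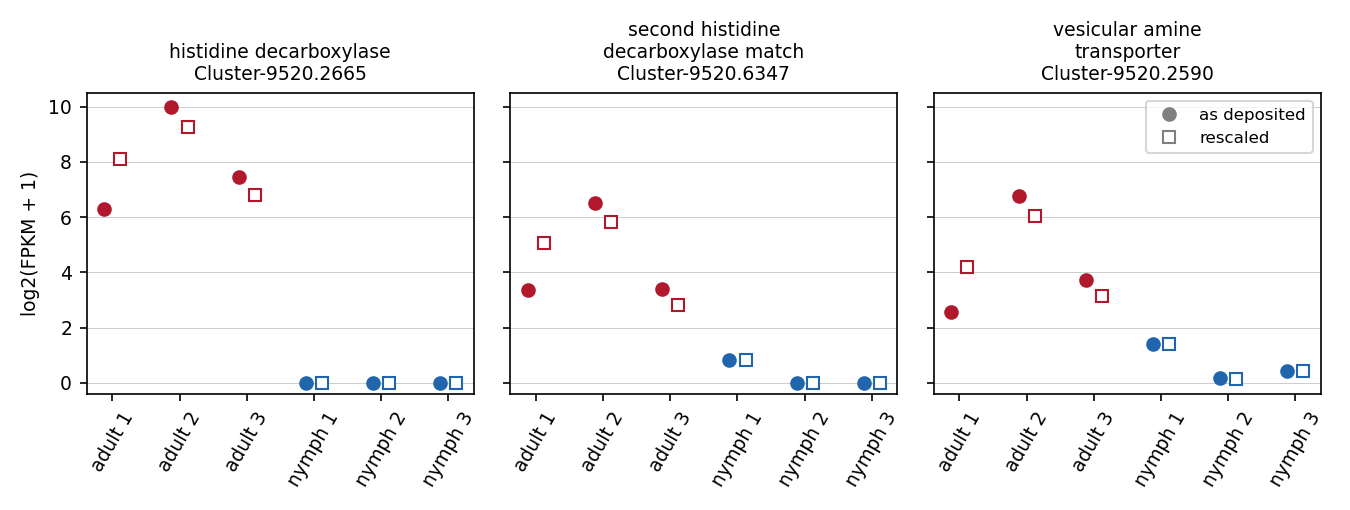
Each panel plots 1 cluster over the 6 libraries as log2(FPKM + 1), with filled circles for FPKM as deposited, open squares for rescaled FPKM, red for adult and blue for nymph. Histidine decarboxylase reaches 1004 FPKM in adult replicate 2 and is listed at 0 in every nymph library, and the 2 clusters beside it are also highest in adult replicate 2.

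Of 22242 clusters, 46 (0.207%) were above 0 in every adult library and listed at 0 in every nymph library, and 196 (0.881%) showed the reverse. Ordered by the lowest adult value, histidine decarboxylase led the 46 with 77.4 FPKM. The next was an antibacterial peptide (Cluster-9520.1123), of a class of secreted immune peptides, whose lowest adult value was 9.92 FPKM. A lysozyme (Cluster-732.0), an enzyme that cuts bacterial cell walls, followed with 7.79 FPKM. These 2 clusters were chosen after their values were seen. Histidine decarboxylase was itself chosen for this pattern, so its place among the 46 is a description and no support. The 46 clusters had a median length of 623 bases, 14 of them had a Swiss-Prot match, and 30 were at 1 FPKM or more in all adult libraries. Among the 196 with the reverse pattern, the highest value for the lowest nymph library was 50.25 FPKM.

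**Figure D2:**
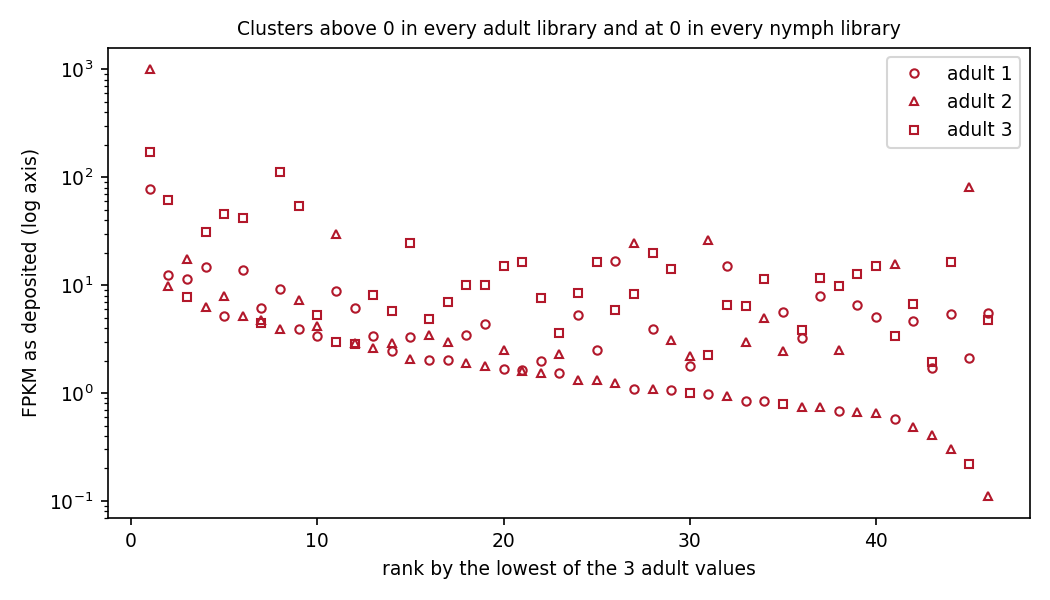
Deposited FPKM on a log axis are shown for the 46 clusters above 0 in every adult library and listed at 0 in every nymph library, ordered along the x axis by their lowest adult value, with 1 symbol per adult library. Histidine decarboxylase is the leftmost cluster, at 77.4 to 1004 FPKM, and the lowest value of the next cluster is 9.92.

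A further cluster named for the same enzyme was also higher in every adult library. Cluster-9520.6347, 1899 bases long, was at 9.13, 90.9 and 9.49 FPKM in adult replicates 1, 2 and 3 and at 0.78, 0 and 0 in nymph replicates 1, 2 and 3. Every adult library was above every nymph library, and adult replicate 2 was again the highest. About 205, 2164 and 286 fragments stood behind the adult values and 19 behind the value in nymph replicate 1. Its best mRNA match is another histidine decarboxylase-like gene of Halyomorpha halys, not the one that Cluster-9520.2665 matches, and its KO term is histidine decarboxylase. Its identity is less firm, with a score of 181 against the Drosophila melanogaster enzyme and with no decarboxylase domain listed. Reads shared between the 2 clusters were not examined here, so their separate levels are uncertain to that extent.

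For Cluster-9520.6347 the rescaled means were 31.2 ± 24.6 for adults and 0.254 ± 0.441 for nymphs (SD, n = 3 each). Its log2 difference, adult minus nymph, was 4.29 ± 0.80 SE, and it did not pass the threshold (limma adjusted p = 0.074, over 11961 clusters tested). The cluster entered the test only through its adult libraries, so it had to differ and its p is no support. Its mean FPKM was 36.5 in adults and 0.26 in nymphs, so a filter on the mean also admits it through the adults. It passed with a filter on the mean FPKM (limma adjusted p = 0.01), with no filter (0.00029), on FPKM as deposited (0.018) and after quantile normalization (0.029). Without adult replicate 2 the log2 difference was 3.54 (limma adjusted p = 0.38, with a filter of 2 libraries), and without adult replicate 3 it passed (limma adjusted p = 0.00011, same filter). Over 18 alternatives the limma adjusted p ran from 0.00011 to 0.38, and 3 others did not admit the cluster to the test. The level of Cluster-9520.2665 was 8.48, 11.1 and 18.2 times that of Cluster-9520.6347 in adult replicates 1, 2 and 3, as deposited and per length.

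No other amine enzyme was above 0 in every adult library and at 0 in every nymph library, a pattern that 0.207% of all clusters had. Ornithine decarboxylase (Cluster-9520.3755), the first enzyme of polyamine synthesis, was at 10.2, 72.6 and 89.1 FPKM over the adult libraries against 23.5, 62.6 and 46.6 over the nymph ones. Its stages overlapped. The rescaled means were 45.8 ± 10.6 for adults and 38.7 ± 13.6 for nymphs (SD, n = 3 each; log2 difference 0.28 ± 0.51 SE, limma adjusted p = 0.88). The sign of that difference turned to -0.21 after rescaling to an equal total. S-adenosylmethionine decarboxylase (Cluster-9520.1234), which supplies the aminopropyl groups of spermidine and spermine, was at 0.17, 23.4 and 4.04 FPKM over the adult libraries against 1.83, 1.72 and 2.54 over the nymph ones. It was high in adult replicate 2 alone, and its log2 difference of 0.65 ± 0.87 SE (limma adjusted p = 0.84) became -0.24 without that library.

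Aromatic-L-amino-acid decarboxylase, which makes dopamine and serotonin, was matched by 2 clusters. The long one, Cluster-1331.0 with 1635 bases, was at 0 in adult replicate 1, 6.59 FPKM in replicate 2 and 33.3 in replicate 3, with no nymph library above 0. It was thus also listed at 0 in all nymph libraries, but so was adult replicate 1, and adult replicate 3, not 2, was the highest. It did not reach 1 FPKM in 3 libraries and was not tested. Under the settings that admitted it, the limma adjusted p ran from 0.44 to 0.99. The short one, Cluster-4868.0 with 359 bases, was at 6.89 FPKM in nymph replicate 3 and at 0 elsewhere. The acidic amino acid decarboxylase GADL1 match (Cluster-4085.0) was at 1.88, 0.97 and 0 FPKM over the adult libraries against 0, 4.47 and 0.7 over the nymph ones, low and without a stage pattern, and was not tested either. None of the 23 clusters was named for tyrosine 3-monooxygenase or for a tyramine enzyme.

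The other 2 amine enzyme matches, both ornithine decarboxylases of Escherichia coli, were short clusters. Cluster-16.0 (346 bases) was at 70.9 FPKM in adult replicate 3 and Cluster-12769.0 (328 bases) at 19.96 in nymph replicate 1, with 0 in all other libraries. Of the 22 clusters other than Cluster-9520.2665, 6 were above 0 in 1 library each and 1 was at 0 in every library. None of the 22 was above 0 in all adult and at 0 in all nymph libraries, against 0.207% of all clusters. At that share the absence is no result about the list. Of the 22, 4 reached 1 FPKM in every adult library.

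Of the 14 matches that make no amine, 10 were tested and 0 were called (limma), against 0.234% of all tested clusters. At an unadjusted p under 0.05, 1 was lower, against 6.09%. That was the histamine H2 receptor match (Cluster-12382.0), which entered the test only through its nymph libraries. By mean FPKM over all libraries the most abundant match was ornithine decarboxylase antizyme (Cluster-9520.3616), a protein that marks ornithine decarboxylase for degradation. It was at 49.2, 156 and 242 FPKM over the adult libraries against 286, 345 and 284 over the nymph ones, with every nymph library above every adult library (log2 difference -0.99 ± 0.50 SE, limma adjusted p = 0.62). Diphosphomevalonate decarboxylase (Cluster-9520.5243) of isoprenoid synthesis had a log2 difference of -0.53 ± 0.75 SE (limma adjusted p = 0.85). Uroporphyrinogen decarboxylase (Cluster-9520.4692) of haem synthesis had one of -0.16 ± 0.63 SE (limma adjusted p = 0.95). Phosphopantothenoylcysteine decarboxylase (Cluster-11316.0) of coenzyme A synthesis had one of -0.87 ± 0.60 SE (limma adjusted p = 0.74). All 3 overlapped between the stages and were lowest in adult replicate 1, at 0.4, 1.51 and 0.62 FPKM.

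The remaining tested matches were UDP-glucuronic acid decarboxylase (Cluster-10441.0), malonyl-CoA decarboxylase (Cluster-9520.6045), a pyridoxal-dependent decarboxylase domain protein (Cluster-8906.0), ethylmalonyl-CoA decarboxylase (Cluster-7302.1) and phosphatidylserine decarboxylase (Cluster-12139.0). Their levels ran from 0 to 10.64 FPKM, all overlapped between the stages, and their log2 differences ran from -0.56 to 0.53. A short phosphatidylserine decarboxylase match (Cluster-12139.1) was at 0 in every library. The last 3, of 304 to 376 bases, matched bacterial decarboxylases and were each above 0 in 1 library. Cluster-4670.0 was at 3.2 FPKM in adult replicate 2, and Cluster-5463.0 and Cluster-7866.0 were at 18.4 and 10.03 FPKM in nymph replicate 1.

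**Figure D3:**
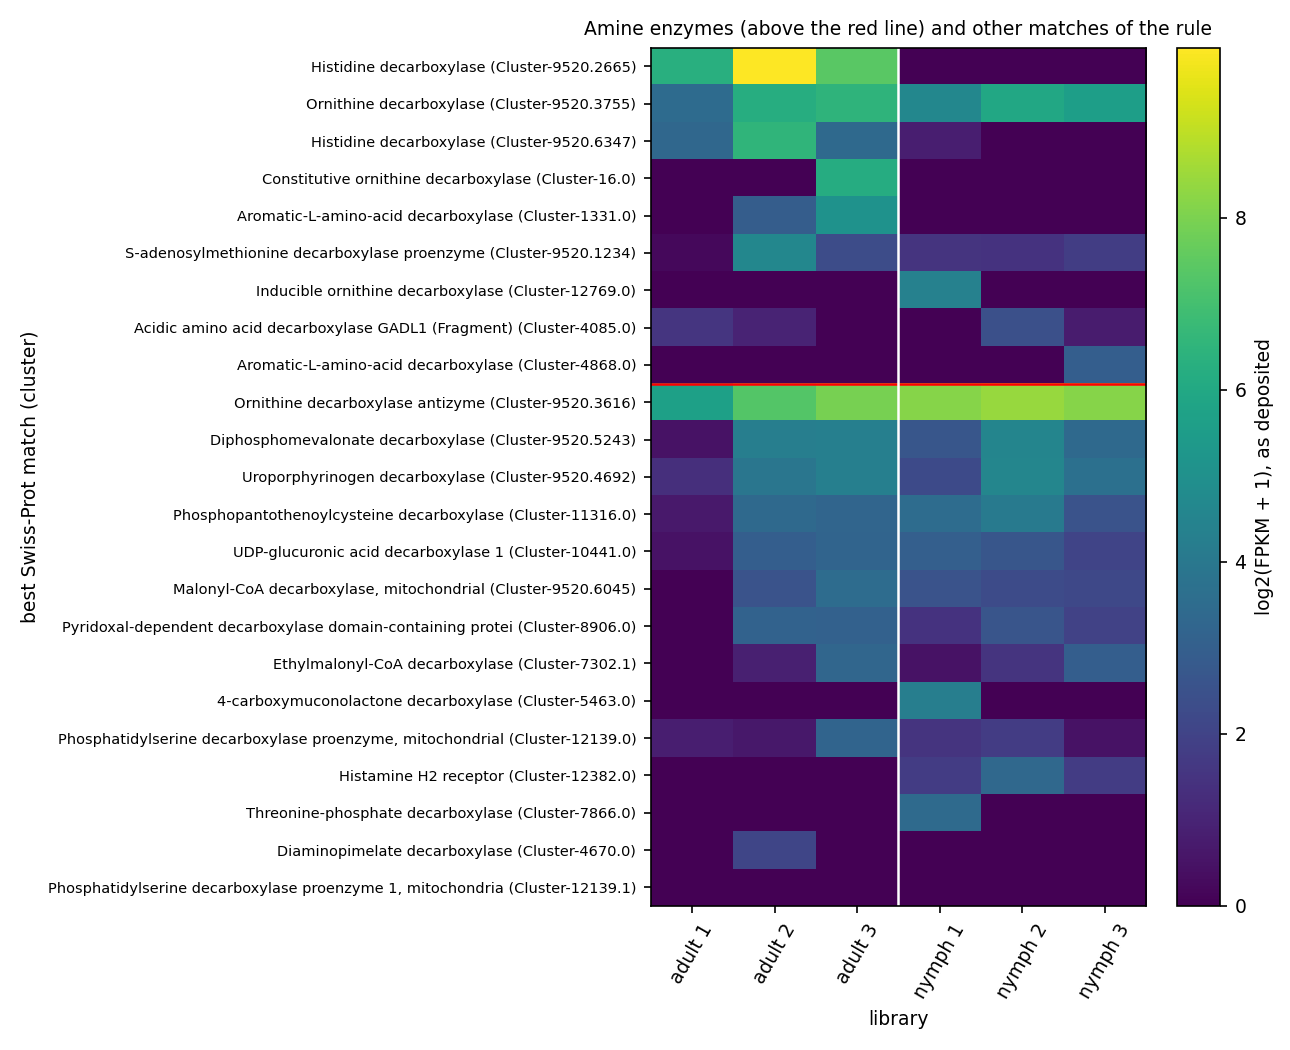
The colour gives log2(FPKM + 1) as deposited for the 23 clusters matched by the rule (rows) in the 6 libraries (columns), with enzymes that make an amine above the red line and the white line between adult and nymph. Histidine decarboxylase is the brightest row in adult replicates 1 and 2, up to 1004 FPKM, and dark in nymphs, while ornithine decarboxylase antizyme is bright in all libraries and the brightest in adult replicate 3.

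In counts, 13 of the 22 other clusters were tested. Of these, 0 were called higher and 0 lower (limma, adjusted p under 0.05), against 0.234% of all tested clusters called in either direction, 0.1% higher in adults and 0.134% lower. At an unadjusted p under 0.05, 1 was higher, Cluster-9520.6347, and 1 was lower, against 2.95% and 6.09% of all tested clusters. The adult libraries stood all above the nymph libraries in 1 of the 13, against 3.95% of all tested clusters. The reverse held in 2 of them, against 10.1%. The median log2 difference of the 13 was -0.35, beside -0.29 over all tested clusters. Both medians depended on the scaling: after quantile normalization they were 0.07 and -0.07, and after rescaling to an equal total -0.44 and -0.40. A cluster that passes the filter through 1 stage alone must differ, so these counts describe the list and are no support for it. Histidine decarboxylase took 51.0%, 70.7% and 24.2% of the FPKM summed over the 23 clusters in adult replicates 1, 2 and 3. It was the most abundant of them in adult replicates 1 and 2 and stood below the antizyme in replicate 3.

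Of the tested proteins that store and move amines, only the vesicular amine transporter was higher in every adult library than in every nymph library. Unlike the enzyme, it was above 0 in every nymph library. Cluster-9520.2590, whose best match among proteins is the synaptic vesicular amine transporter of Halyomorpha halys, is 3222 bases long. It was at 4.85, 106 and 12.1 FPKM in adult replicates 1, 2 and 3 and at 1.66, 0.13 and 0.34 in nymph replicates 1, 2 and 3. The stages did not overlap, and the adult libraries had the same order as for histidine decarboxylase, with about 198, 4548 and 664 fragments in adults and 72, 7 and 18 in nymphs. Histidine decarboxylase was 16, 9.46 and 14.2 times as abundant per length in the 3 adult libraries. The rescaled means of the transporter were 29.8 ± 30.5 for adults and 0.688 ± 0.821 for nymphs (SD, n = 3 each). Its log2 difference was 3.80 ± 0.79 SE and did not pass the threshold (limma adjusted p = 0.12). Since nymph replicates 2 and 3 were below 1 FPKM, the transporter met the filter mainly through its adult libraries. Its p is therefore no support. The transporter passed without adult replicate 3 (limma adjusted p = 0.041), with a filter on the mean FPKM (0.025) and with no filter (0.0015). Without adult replicate 2 the log2 difference was 2.91 (limma adjusted p = 0.17). Over 21 alternatives the limma adjusted p ran from 0.0012 to 0.44.

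Organic cation transporters, a family of membrane carriers for charged small molecules that includes amine carriers, overlapped between the stages. The most abundant, Cluster-9520.4834, was at 8.79, 133 and 21.0 FPKM over the adult libraries against 29.8, 10.01 and 4.14 over the nymph ones (log2 difference 1.62 ± 0.80 SE, limma adjusted p = 0.61). Nymph replicate 1 stood above adult replicates 1 and 3, so the high value was that of adult replicate 2. Cluster-9520.2437, another match of this family, was at 1.42, 12.57 and 0 FPKM in adult replicates 1, 2 and 3. It was listed at 0 in every nymph library and was not tested. Of 11 storage and transport clusters, 7 were tested, with 0 calls in either direction (limma), against 0.234% of all tested clusters. The median log2 difference of the 7 was 0.49. Of the 7, 6 lay above 0, against 4591 of the 11960 tested clusters other than histidine decarboxylase. After rescaling to an equal total or on FPKM as deposited, 5 of the 7 lay above 0. At an unadjusted p under 0.05, 1 was higher, the vesicular transporter, against 2.95% of all tested clusters.

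No cluster of the supply side of the reaction passed the threshold, which 0.234% of all tested clusters did. Lists this short would seldom hold a call at that share, so these counts are no result about the supply. Pyridoxal kinase (Cluster-9520.4949), which makes the cofactor, had a log2 difference of -0.39 ± 0.62 SE (limma adjusted p = 0.86), and the pyridoxal phosphate homeostasis protein (Cluster-9520.1091), which binds it, one of -0.13 ± 0.59 SE (limma adjusted p = 0.96). Of 4 cofactor clusters 3 were tested, and 0 were called (limma) or had an unadjusted p under 0.05. Of all tested clusters, 2.95% were higher and 6.09% lower at that unadjusted p. Histidine--tRNA ligase (Cluster-9520.5213), which also uses histidine, was at -0.22 ± 0.68 SE (limma adjusted p = 0.94). A high affinity cationic amino acid transporter (Cluster-9520.2230), a carrier of basic amino acids, was at 2.35, 16.5 and 3.65 FPKM over the adult libraries against 7.78, 0.81 and 0.67 over the nymph ones (log2 difference 1.30 ± 0.83 SE, limma adjusted p = 0.73). Its stages overlapped through nymph replicate 1. Of 5 clusters for histidine use and supply 3 were tested, and 0 were called (limma) or had an unadjusted p under 0.05, against the same shares.

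Enzymes of pterin metabolism provide the cofactor of the hydroxylases that precede dopamine and serotonin. All 5 were tested, and 0 were called (limma) or had an unadjusted p under 0.05. Of all tested clusters, 0.234% were called, and 2.95% were higher and 6.09% lower at the unadjusted p. The median log2 difference of the 5 was -0.72, and all 5 lay below 0, as did 7369 of the 11960 tested clusters other than histidine decarboxylase. After quantile normalization dihydropteridine reductase was at 0.04. Pterin-4-alpha-carbinolamine dehydratase (Cluster-11586.0) and dihydropteridine reductase (Cluster-9520.578), which regenerate that cofactor, had log2 differences of -0.05 ± 0.79 SE and -0.11 ± 0.60 SE (limma adjusted p = 0.99 and 0.96).

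In Drosophila melanogaster, ebony removes histamine by joining it to beta-alanine, which gives carcinine, and a carcinine hydrolase splits it again and so regenerates histamine. The hydrolase match (Cluster-9520.5574) was at 3.53, 26.1 and 28.7 FPKM over the adult libraries against 5.31, 22.0 and 10.6 over the nymph ones, with overlap (log2 difference 0.61 ± 0.55 SE, limma adjusted p = 0.77). The longest of 3 ebony matches, Cluster-9520.3050, was at 0, 0.56 and 6.54 FPKM over the adult libraries against 4.06, 7.91 and 3.1 over the nymph ones, also with overlap (log2 difference -1.44 ± 0.81 SE, limma adjusted p = 0.7). Both were chosen after their values were seen, for their part in histamine metabolism. Both were above 0 in every nymph library, where histidine decarboxylase was listed at 0.

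The 2 most abundant matches among the removal patterns were a cluster named for an aldehyde oxidase (Cluster-9520.4061), whose best protein match is a xanthine dehydrogenase, and an arylalkylamine N-acetyltransferase-like protein (Cluster-6771.0). The first had a log2 difference of -0.54 ± 0.74 SE and the second, of a family that acetylates amines, one of -1.44 ± 0.64 SE (limma adjusted p = 0.84 and 0.54). Of 13 removal clusters 12 were tested, with 0 called (limma), against 0.234% of all tested clusters, and a median log2 difference of -0.37. At an unadjusted p under 0.05, 3 were lower, against 6.09%. These were Cluster-6771.0, an arylalkylamine N-acetyltransferase 1 match (Cluster-9520.3145) and a spermine oxidase match (Cluster-9520.3450). The last was at 0, 3.48 and 0 FPKM over the adult libraries. It met the filter mainly through its nymph libraries, so its p is no support. Of the 12 tested, 3 lay above 0, against 4591 of the 11960 tested clusters other than histidine decarboxylase. After quantile normalization 6 of the 12 lay above 0. The 13 include 2 clusters for the scaffold protein TANC2, which entered through the letters of a pattern and are no amine enzymes.

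Receptor transcripts were low. The cluster that Swiss-Prot names a histamine H2 receptor (Cluster-12382.0, 474 bases) was listed at 0 in all adult libraries and was at 2.43, 9.24 and 2.45 FPKM in nymphs (log2 difference -2.17 ± 0.68 SE, limma adjusted p = 0.31). The stages did not overlap, but the cluster reached 1 FPKM in the nymph libraries alone and passed the filter only through them, so it had to differ and its p is no support. Its best protein match is G-protein coupled receptor 52 and its KO term a dopamine/ecdysteroid receptor, so it is not shown to be a histamine receptor. A serotonin receptor match (Cluster-9520.4097) was between 0.52 and 6.07 FPKM in all libraries (log2 difference 0.19 ± 0.81 SE, limma adjusted p = 0.95), and its sign turned to -0.08 on FPKM as deposited. Of 5 receptor clusters 3 were tested and 0 were called (limma), against 0.234% of all tested clusters. At an unadjusted p under 0.05, 1 was lower, the H2 receptor match, against 6.09%. Of 4 polyamine clusters, the antizyme included, 3 were tested and 0 called, with 1 lower at an unadjusted p under 0.05, against the same shares. That was a spermidine synthase match (Cluster-10583.0), which also passed the filter only through its nymph libraries. Spermine synthase (Cluster-9520.1649), the enzyme that makes spermine, had a log2 difference of -0.33 ± 0.72 SE (limma adjusted p = 0.9).

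**Figure D4:**
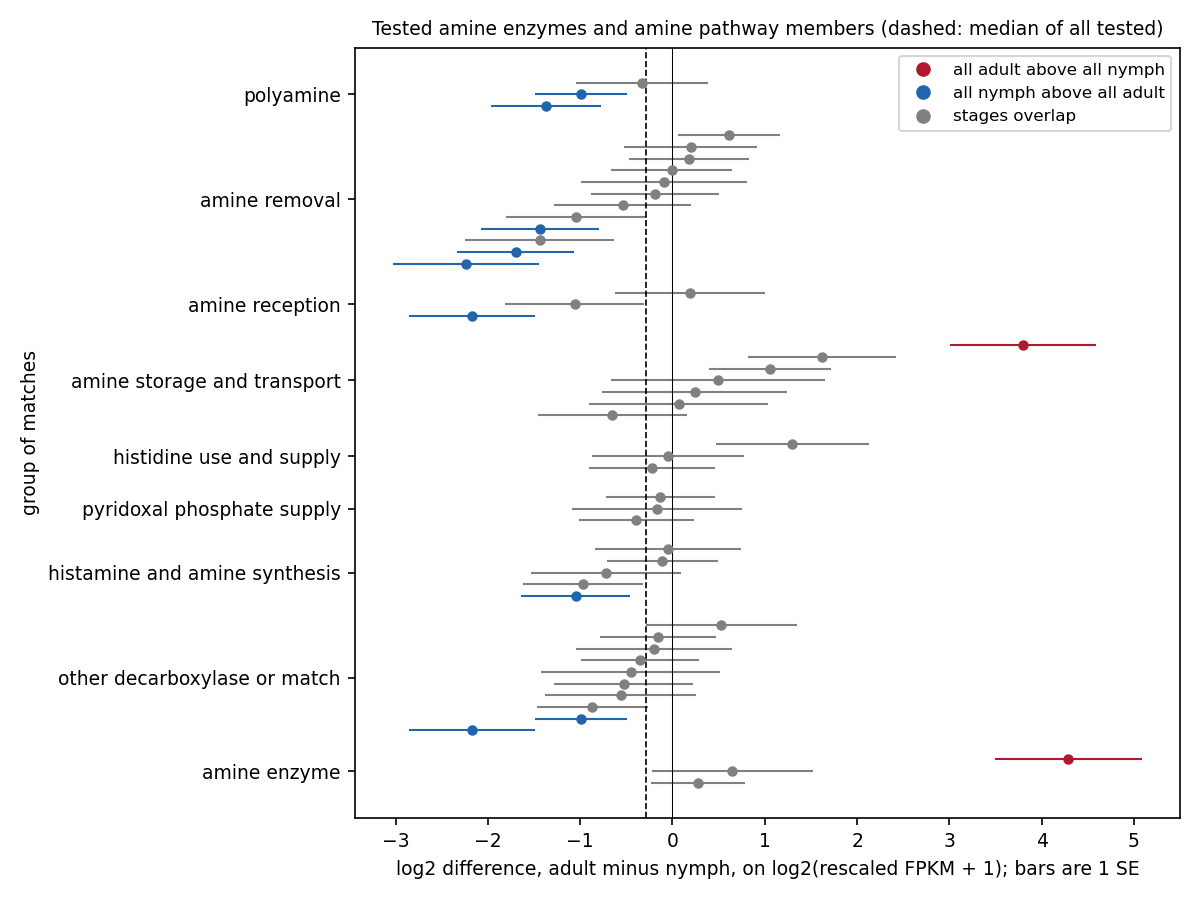
Points give the log2 difference, adult minus nymph, with bars of 1 SE, for the tested clusters of each group other than histidine decarboxylase, coloured by whether the rescaled FPKM of the stages overlap. The 2 red points, at 4.29 and 3.80, are the further histidine decarboxylase cluster and the vesicular amine transporter, and the dashed line is the median of all tested clusters at -0.29. The antizyme and the histamine H2 receptor match appear in 2 groups each.

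Over the whole pathway list, 36 of 47 clusters were tested. Of these, 0 were called (limma, adjusted p under 0.05), against 0.234% of all tested clusters. At an unadjusted p under 0.05, 1 was higher and 5 were lower, against 2.95% and 6.09%. The median log2 difference of the 36 was -0.18, with 11 above and 25 below 0. Over the tested clusters other than histidine decarboxylase it was -0.29, with 4591 above and 7369 below 0. After quantile normalization 19 of the 36 lay above and 17 below 0, so the signs of this list depended on the scaling. The adult libraries stood all above the nymph libraries in 1 of the 36 and below them in 7, against 3.95% and 10.1% of all tested clusters.

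To see which clusters had a profile like that of histidine decarboxylase, Pearson r of log2(rescaled FPKM + 1) over the 6 libraries was taken for the 2707 tested clusters with a Swiss-Prot match and an adult mean of at least 5 FPKM. The median r was -0.041. This r is a description: with 3 values of 0 it is set mostly by the gap between the stages, and the libraries share their depth and composition. The beta subunit of glucosidase 2 (Cluster-9520.6724), which trims glycans in the endoplasmic reticulum, came first at 0.997, although its levels were low, at 1.86, 12.1 and 7.21 FPKM in adults and 0.76 to 0.87 in nymphs. The trehalose transporter Tret1 (Cluster-9520.2483), a carrier of the main blood sugar of insects, came next at 0.995, and carboxypeptidase B (Cluster-9520.4052), which trims basic residues from proteins, at 0.994. An Xaa-Pro aminopeptidase P (Cluster-9520.5846) stood at 0.988 and an acyl-CoA dehydrogenase for medium chains (Cluster-9520.6264), an enzyme of fatty acid oxidation, at 0.983.

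A venom serine protease (Cluster-9520.4173) followed with an r of 0.975, and was at 1990, 24578 and 4295 FPKM in adults and 364 to 916 in nymphs. The adult libraries had the same order as for the enzyme, but the protease was abundant in nymphs too. A transposon polymerase match (Cluster-9520.1644) had an r of 0.974, aminopeptidase N (Cluster-9520.6270), which removes residues from the amino end, 0.969, the further histidine decarboxylase cluster (Cluster-9520.6347) 0.967 and a glucose dehydrogenase (Cluster-9520.5118) 0.966. As deposited, adult replicate 2 was the highest library for all 10, and in all 10 the stages did not overlap. Both traits follow largely from the choice by r and are no separate result. Rescaled, the transposon polymerase match was highest in adult replicate 1, at 7.90 against 5.28 in adult replicate 2. The vesicular amine transporter stood at rank 22 with an r of 0.95, the organic cation transporter Cluster-9520.4834 at rank 329 with 0.70 and ornithine decarboxylase at rank 812 with 0.30. Ornithine decarboxylase antizyme had an r of -0.93.

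**Figure D5:**
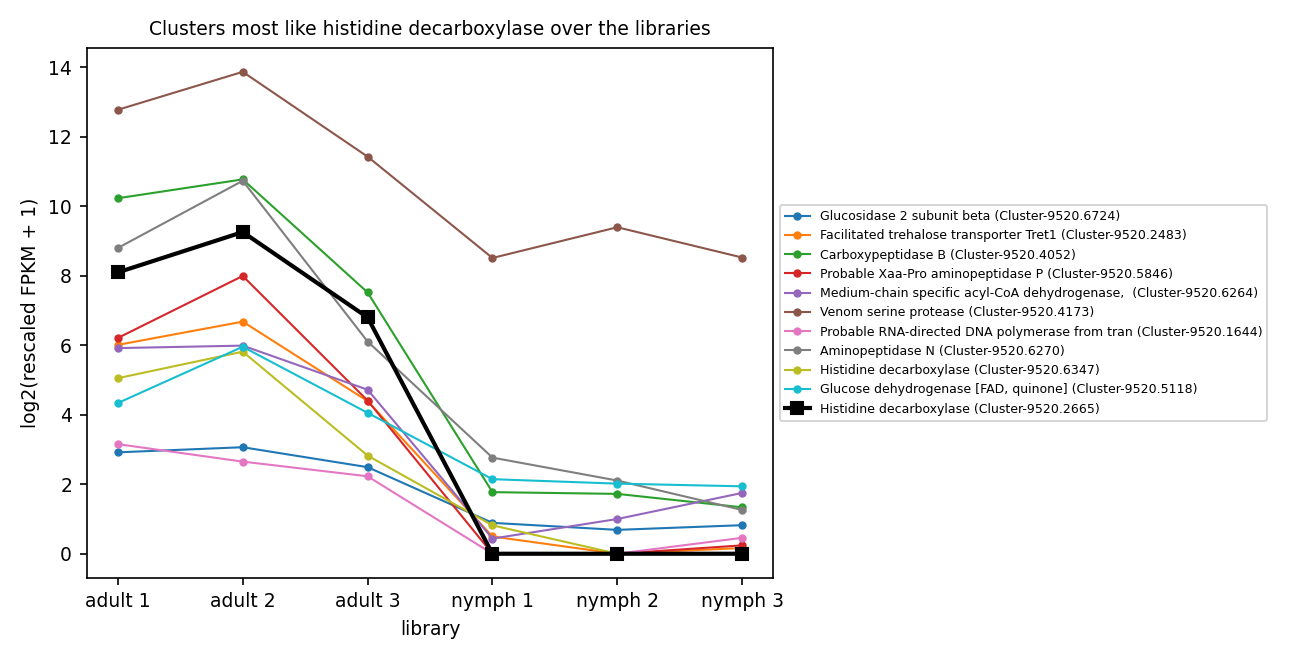
Each line joins the log2(rescaled FPKM + 1) of 1 cluster over the 6 libraries, in black for histidine decarboxylase and in colour for the 10 clusters with the highest r to it. All lines drop from the adult to the nymph libraries, and only histidine decarboxylase is listed at 0 in all 3 of the latter.

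No cluster of the 7 marker lists passed the threshold (limma, adjusted p under 0.05), against 0.234% of all tested clusters. At that share the absence of calls is no result about the markers. Neuron and synapse markers (18 clusters) summed to 20.8, 108 and 244.5 FPKM in adult replicates 1, 2 and 3 and to 85.8 to 137 in nymphs. Their sum was highest in adult replicate 3, where the enzyme was at 172 FPKM and a short synaptotagmin match (Cluster-38.0) gave 109 of it. The list also holds syntaxin-16, syntaxin-18, YKT6, extended synaptotagmin and CUGBP Elav-like matches. These entered through the letters of its patterns and are not particular to neurons, so the sum is no measure of nerve tissue. The members of the list differed among themselves. A syntaxin-1A match (Cluster-10119.0) and complexin (Cluster-9520.3555) were above 0 in every library, while another syntaxin-1A match (Cluster-7995.0) was at 0 in adult replicate 1. The neuronal acetylcholine receptor subunit alpha-7 (Cluster-8724.0) was at 0, 0.33 and 0 FPKM over the adult libraries against 5.89, 3.28 and 4.62 over the nymph ones. Photoreceptor markers (14 clusters, mostly arrestin-domain proteins) summed to 4.24, 34.4 and 112 FPKM in adults and 30.7 to 49.4 in nymphs, and the only opsin match (Cluster-4089.0) was at 0 in every library except nymph replicate 2. Fat body markers (15 clusters) summed to 21.1, 4.7 and 133 FPKM in adults and 39.2 to 47.6 in nymphs, with the lowest sum in adult replicate 2. That sum pools members of opposite direction. The 5 vitellogenin matches, yolk protein precursors of adult females, were listed at 0 in every nymph library, as histidine decarboxylase was. Of these, Cluster-309.0 was at 5.26, 1.32 and 8.45 FPKM and Cluster-119.0 at 5.49, 0.11 and 4.76 in adult replicates 1, 2 and 3, and both are among the 46 clusters above 0 in adult libraries alone. Unlike the enzyme, both were lowest in adult replicate 2. Hexamerin (Cluster-9520.5895), a storage protein of immature insects, was at 2.04, 0.34 and 2.09 FPKM over the adult libraries against 18.0, 22.1 and 13.4 over the nymph ones. Muscle markers (29 clusters) summed to 81.35 to 234 FPKM in adults and 271 to 524 in nymphs, and this sum also pools opposite directions. A titin match (Cluster-3636.0) was at 3.90, 1.09 and 19.99 FPKM in adult replicates 1, 2 and 3 and at 0 in nymphs. Muscle myosin heavy chain (Cluster-9520.4284) was at 2.98, 9.04 and 7.87 against 21.90, 25.06 and 23.14. Cuticle markers of the epidermis (21 clusters) summed to 1.62, 15.1 and 6.4 FPKM in adults and 48.9 to 305 in nymphs.

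For the epidermis, haemocyte and venom gland secretion lists, the adult sums had the same order as the deposited FPKM of the enzyme. Haemocyte markers (16 clusters) summed to 206, 2164 and 502 FPKM in adults and 257 to 1822 in nymphs, most of it in phenoloxidase-activating enzymes, which are serine proteases. Hemocytin, a defining marker of these blood cells, was matched by 2 short clusters that were at 0 in adult replicates 1 and 3. Cluster-5684.0 was at 2.93 FPKM in adult replicate 2 and at 18.11, 4.71 and 0 in nymph replicates 1, 2 and 3. Cluster-4456.0 was above 0 in nymph replicate 2 alone, at 19.04 FPKM. Histidine decarboxylase came to 0.116%, 0.2% and 0.131% of the summed secretion markers in adult replicates 1, 2 and 3. The secretion sum in nymphs, 67502 to 177391 FPKM, overlapped with that of adults, while the enzyme was at 0. The part of cell composition in the stage difference was not tested.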

How the data were processed

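Venom gland RNA was extracted with TRIzol and made into NEBNext Ultra libraries, per the labels' protocols. The authors deposited FPKM per transcript cluster with the best database matches. DESeq2 1.20.0, featureCounts 1.5.0-p3, HISAT2 2.0.5, fastp and CASAVA 1.8 are listed in the submitters' processing notes, which assign them no task. For the FPKM, the tool was not given in the sources used here.

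Libraries were rescaled by the median ratio (factors 0.2835, 1.643 and 1.559 in adult replicates 1 to 3 and 1.022, 1.361 and 0.9902 in nymph replicates 1 to 3). The comparison of stages used limma 3.58.1 (R 4.3.3) on log2(rescaled FPKM + 1), fitting stage alone with the trend and robust options, for clusters at 1 FPKM or more in at least 3 libraries. Benjamini-Hochberg adjustment ran over all 11961, with a threshold of 0.05. This scale understates differences of low clusters. In a simulation of adult minus nymph over 11961 clusters, folds were added as shifts on this same scale. They therefore match folds of FPKM only for abundant clusters, and the rates do not describe low ones. The test found 0 of 50 altered clusters at 2-fold, 0 of 50 at 4-fold, 11 of 50 at 16-fold and 32 of 50 at 64-fold. It made 1 false call.

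Fragments were recovered by fitting a total and a length offset per library to values below 3 FPKM in clusters 500 to 1100 bases long. In clusters of 1100 to 1500 bases 99.4% to 99.8% of such values lay within 0.15 of a whole number, against 30% by chance.

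Clusters were named by their Swiss-Prot match. Besides histidine decarboxylase, the text names every amine-making enzyme of the list, the 4 most abundant other matches, the 2 most abundant members of each pathway pattern and the 10 most alike clusters. The cluster, lists and patterns were chosen with earlier results of these data known. Alternatives were other pseudocounts, filters and scalings, limma without its trend and robust options, a replicate block and each library left out.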

Additional observations from a re-analysis of the deposited data

How the results depend on the processing

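The log2 difference of histidine decarboxylase was 11.37 with a pseudocount of 0.1 and from 7.85 to 9.05 under the other settings tried, with 7.29 to 8.52 when single libraries were left out. The count of clusters past the threshold, 28, was 12 with a pseudocount of 0.1, 65 with a mean filter, 104 with no filter, 72 on FPKM as deposited and 47 after quantile normalization. Leaving out single libraries gave 4 without adult replicate 1, 1 without adult replicate 2 and 54 without adult replicate 3, and 6, 9 and 9 when a nymph replicate (1, 2 or 3) was dropped. With a filter of 2 libraries, a setting chosen after seeing the data, these were 35, 24 and 171, and 9, 13 and 20. In the list of amine enzymes and decarboxylases the count rose from 0 to 1 with a mean filter, with no filter, on FPKM as deposited and after quantile normalization. In the pathway list it rose from 0 to 1 with a mean filter and with no filter. With single libraries left out both counts ran from 0 to 1. The pathway list reached 1 without adult replicate 3 under either filter. The list of amine enzymes and decarboxylases stayed at 0 with the filter of 3 libraries and reached 1 without adult replicate 3 only with the filter of 2. Cluster-9520.6347 was the only member to pass under any setting. With the filter of 3 it was not tested when an adult library was left out, so those counts of 0 say nothing about it. The replicate numbers do not pair the libraries by any label, and same-numbered libraries had correlations of deviations of 0.165, -0.0427 and 0.213. Adult replicate 2 correlated best with nymph replicate 1. With a replicate block 29 clusters passed.

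Of 22 clusters named with a test, 11 kept the sign of their log2 difference under every setting run. The other 11 changed it in at least 1, all with limma adjusted p of at least 0.57. After quantile normalization uroporphyrinogen decarboxylase was at 0.09, dihydropteridine reductase at 0.04, histidine--tRNA ligase at 0.20 and spermine synthase at 0.15. After rescaling to an equal total ornithine decarboxylase was at -0.21 and the serotonin receptor (Cluster-9520.4097) at -0.29, and the latter was at -0.08 on FPKM as deposited. With single libraries left out the ranges were -0.07 to 0.45 for ornithine decarboxylase, -0.24 to 1.47 for S-adenosylmethionine decarboxylase, -0.98 to 0.28 for diphosphomevalonate decarboxylase and -0.75 to 0.22 for uroporphyrinogen decarboxylase. They were -0.70 to 0.62 for pterin-4-alpha-carbinolamine dehydratase, -0.47 to 0.25 for dihydropteridine reductase, -0.83 to 0.05 for pyridoxal kinase and -0.39 to 0.30 for the pyridoxal phosphate homeostasis protein. They were -0.73 to 0.45 for histidine--tRNA ligase, -0.30 to 0.84 for the serotonin receptor and -0.74 to 0.34 for spermine synthase. The cause of these changes was not tested.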
